A study of Mus musculus with 4 samples.

Results

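Adrenergic signalling was described here through 9 genes that carry it in the heart muscle cell: the receptors Adrb1, Adra1a and Adra1b, the stimulatory G protein gene Gnas, the adenylyl cyclases Adcy5 and Adcy6, and the protein kinase A (PKA) subunits Prkaca, Prkar1a and Prkar2a. They were chosen by gene name from a table of 48432 gene rows, with earlier results of these data known. All 9 were found in that table, with an estimate in both groups. Cardiomyocytes, the contractile cells of the heart, had been isolated from mice by Langendorff perfusion, and polyadenylated RNA was sequenced. The 2 control libraries are labelled with the genotype MHC ("MHC control"). The other 2, labelled RbFox2 ("Rbfox2 OE"), are from mice that overexpress RBFOX2, an RNA-binding protein that regulates splicing. Mice of both groups had the strain C57BL x FVB and ate doxycycline chow for 3 days, so the controls received doxycycline too. The promoter and cell type that drive the transgene, and the age and sex of the mice, are not given in the sources used here. For each gene the authors' table gives 1 FPKM value in either group and the bounds of that value. FPKM is the number of sequenced fragments scaled to the length of the transcript and to all mapped fragments. With 1 pooled value per group the difference has no replicate check, and no p-value was computed.

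Noradrenaline and adrenaline reach the cardiomyocyte through beta and alpha1 adrenergic receptors. Beta receptors act through the stimulatory G protein on adenylyl cyclase, which makes cyclic AMP. Cyclic AMP binds the regulatory subunits of PKA and frees its catalytic subunits, which phosphorylate calcium channels, phospholamban and troponin I and so raise the force and rate of the beat. Alpha1 receptors couple instead to Gq proteins and phospholipase C.

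All 9 genes had a lower value in Rbfox2 OE than in the control, as did 53.8% of all genes compared. Adcy6 stood furthest apart, at 22.8% of its control value, and Prkaca was nearest, at 69.4%. The bounds of the groups did not overlap for 7 of the 9 genes (Adrb1, Adra1a, Adra1b, Gnas, Adcy5, Adcy6 and Prkar1a), where separate bounds with a lower value were found for 9.33% of the 11697 genes compared, those with a mean of at least 1 FPKM. The difference was at least 2-fold for 5 of them (Adrb1, Adra1a, Adra1b, Adcy6 and Prkar1a), against 10% of all genes compared, counted as a log2 ratio of -1 or below after adding a pseudocount of 1 FPKM to each value. Both rules together were met by the same 5 genes, and by 7.42% of all genes in the lower and 5.27% in the higher direction. None of the 9 was higher by either rule, where 6.67% of genes were higher with separate bounds and 6.97% were at least 2-fold higher. The median log2 ratio was -1.05 over the 9 genes and -0.06 over all genes compared.

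**Figure D1:**
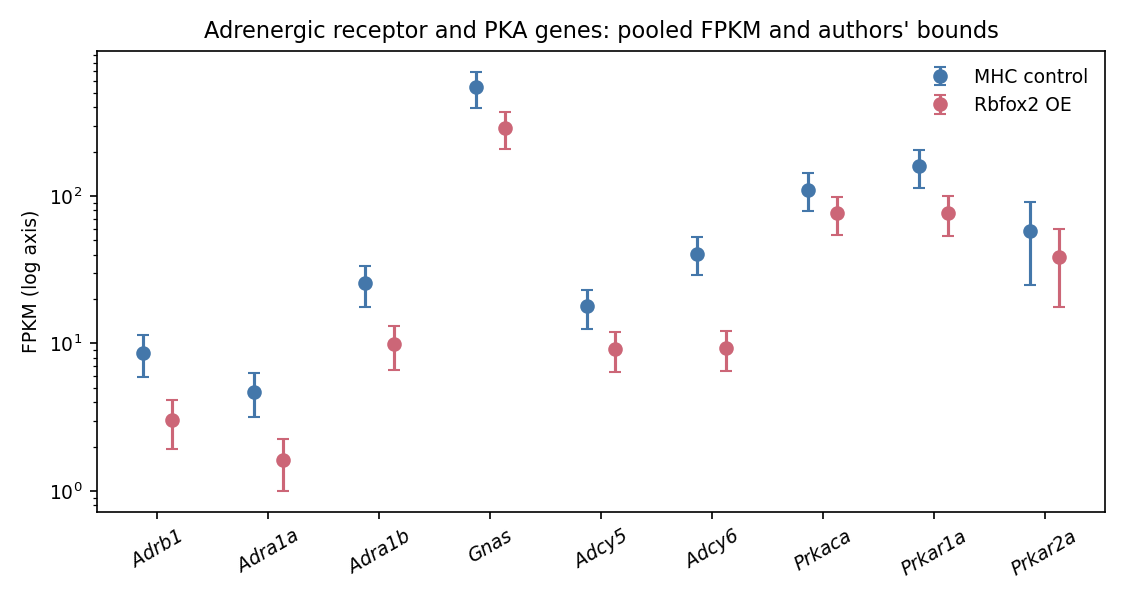
FPKM (log axis) of the 9 genes in MHC control (blue) and Rbfox2 OE (red). Points are the authors' pooled values and bars run from the authors' lower to upper bound; the bars of Prkaca and Prkar2a overlap between groups and those of the other 7 genes do not.

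These counts changed with the genes to which the groups were scaled. Of the 13 markers of the cardiomyocyte itself with an estimate in both groups, 11 had a lower value in Rbfox2 OE. Their log2 ratios ran from -2.42 to 0.60, with a median of -0.70. When Rbfox2 OE was rescaled so that this median was 0, an alternative chosen after the data were seen, Adcy6 alone kept separate bounds and a 2-fold difference, with a log2 ratio of -1.37. Over all genes compared, 2.54% were then lower and 21.5% higher with separate bounds, and 3.10% were at least 2-fold lower and 24.8% at least 2-fold higher. On that scale the receptors lay between -0.71 and -0.64, Gnas at -0.21, Adcy5 at -0.24 and Prkar1a at -0.36. Prkaca and Prkar2a lay above the median marker, at 0.17 and 0.11, though within the range of the markers. Fewer cardiomyocytes among the cells and less RNA per cardiomyocyte cannot be told apart in such bulk samples. Rescaling without mitochondrially encoded genes and the 10 most abundant genes of each group raised every Rbfox2 OE value by 0.15 on the log2 scale. It left 5 of the 9 with separate bounds and 4 at least 2-fold lower. It changed the background too, to 7.05% of genes lower and 8.69% higher with separate bounds, and to 7.83% at least 2-fold lower and 9.02% at least 2-fold higher.

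**Figure D2:**
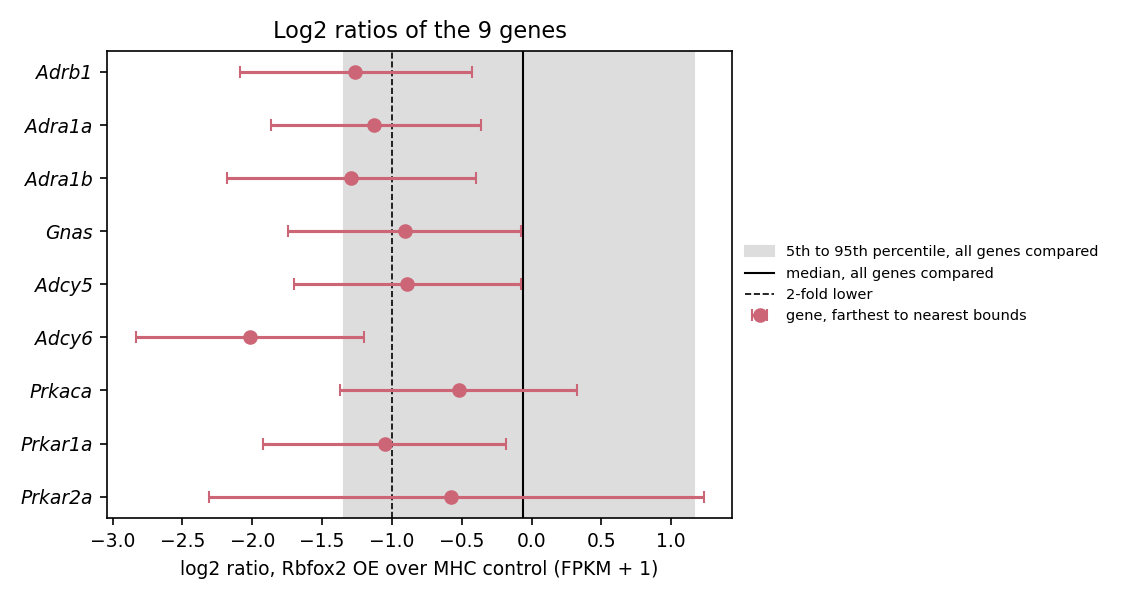
Log2 ratio (FPKM plus 1) of Rbfox2 OE to MHC control for each of the 9 genes, with bars from the farthest to the nearest pair of bounds, beside the median (solid line) and the 5th to 95th percentile (grey) of the 11697 genes compared. The bar of Adcy6 lies wholly below the 2-fold line (dashed), and those of Prkaca and Prkar2a cross 0.

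The transgene was present where the labels put it: Rbfox2 had 14.7 FPKM in MHC control against 293 FPKM in Rbfox2 OE. Defining markers of the labelled cell type were high: Tnnt2 had 10609 and 6917 FPKM and Myl2 24688 and 18007 FPKM. Of 16 such markers 13 had an estimate in both groups, while Myh6 and Mb were listed at 0 in both and Atp2a2 in the control, with the mark HIDATA that Cuffdiff gives a locus with too many fragments. Markers of other cells were present as well, and most were higher in Rbfox2 OE. Their summed FPKM went from 239 to 569 for fibroblasts (10 of 10 higher in value), from 260.0 to 462 for endothelium (10 of 10), from 142 to 485 for macrophages and leukocytes (12 of 12), from 208 to 349 for smooth muscle and pericytes (9 of 10), and from 56.6 to 295 for red blood cells (6 of 6). The 13 cardiomyocyte markers with an estimate in both groups summed to 65700 and 40911 FPKM. Among neuronal and Schwann cell markers Chat was listed at 0 in both groups, and the list summed to 9.57 and 12.6 FPKM. The part of these cells in the differences of the 9 genes was not tested.

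The regions before the starts of 4 of the genes are shown, for a receptor, the G protein and both kinds of PKA subunit, because cyclic AMP acts back on transcription through the cyclic AMP response element. RefSeq windows on GRCm38.p6, from 250 bases before to 50 after a start, were found for 7 of the 9 genes (17 windows). Each sequence is the 250 bases before a start on the plus strand, taken from the window of that gene with most matches and, where tied, the furthest downstream, and capitals mark every match to the element's core TGACG on either strand. Adrb1 is chr19:56721867-56722116, Gnas chr2:174329756-174330005, Prkar1a chr11:109650699-109650948 and Prkaca chr8:83972728-83972977.
Adrb1: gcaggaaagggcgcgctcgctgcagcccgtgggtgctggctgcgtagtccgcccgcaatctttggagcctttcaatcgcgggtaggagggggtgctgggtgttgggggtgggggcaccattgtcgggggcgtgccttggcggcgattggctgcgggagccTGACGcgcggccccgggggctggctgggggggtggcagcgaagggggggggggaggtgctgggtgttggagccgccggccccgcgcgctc
Gnas: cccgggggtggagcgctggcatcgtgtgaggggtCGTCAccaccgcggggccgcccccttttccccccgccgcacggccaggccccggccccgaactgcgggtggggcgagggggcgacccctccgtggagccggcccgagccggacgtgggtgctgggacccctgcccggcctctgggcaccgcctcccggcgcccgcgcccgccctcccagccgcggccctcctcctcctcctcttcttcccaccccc
Prkar1a: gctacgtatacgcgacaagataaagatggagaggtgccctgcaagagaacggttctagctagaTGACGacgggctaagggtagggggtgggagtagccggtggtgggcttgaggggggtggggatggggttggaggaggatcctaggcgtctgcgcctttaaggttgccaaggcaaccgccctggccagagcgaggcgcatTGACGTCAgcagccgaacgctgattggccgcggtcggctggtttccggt
Prkaca: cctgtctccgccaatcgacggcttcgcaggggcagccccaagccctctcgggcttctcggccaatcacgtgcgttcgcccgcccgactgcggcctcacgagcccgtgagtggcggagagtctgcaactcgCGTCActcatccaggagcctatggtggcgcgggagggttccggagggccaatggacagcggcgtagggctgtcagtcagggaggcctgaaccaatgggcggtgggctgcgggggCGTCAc
The core was in at least 1 window of 5 of the 7 genes, a count for which no share over all genes was computed. It was in 9 of 17 windows, against 20.8% of all 32851 windows. Genes with several starts have more windows, and some of these overlap, so that 1 site can count in more than 1 window. The full element TGACGTCA, which holds the core on both strands, was in 2 overlapping windows of Prkar1a, against 1.79% of all windows. Prkar1a had a log2 ratio of -1.05. Adrb1 (-1.26), Gnas (-0.91), Prkar2a (-0.58) and Prkaca (-0.52) had the core and not the full element in these windows. Adra1b (-1.29) and Adcy5 (-0.89) had the core in none of their windows. A link between the element and the differences was not tested. A match is a run of letters in the window and not a measured binding site.

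The receptor genes were compared first. Adrb1, the main beta receptor of the cardiomyocyte, (ENSMUSG00000035283, GRCm38 chromosome 19, 56722199 to 56733113, plus strand) had a control value of 8.64 FPKM, between bounds of 5.89 and 11.4, and an Rbfox2 OE value of 3.02 FPKM, between 1.92 and 4.12. That is a 2.86-fold lower value whose bounds lay apart, at a log2 ratio of -1.26, from -0.43 at the nearest bounds to -2.09 at the farthest. Its value in Rbfox2 OE was 34.9% of that in the control, and 5.94% of the genes compared had a lower log2 ratio.

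Both alpha1 receptors among the 9 genes were lower by about the same factor as Adrb1. Adra1b (ENSMUSG00000050541, chromosome 11, 43774606 to 43901210, minus strand) had a control value of 25.6 FPKM, between bounds of 17.6 and 33.7, and an Rbfox2 OE value of 9.87 FPKM, between 6.63 and 13.1, 2.60-fold lower with a log2 ratio of -1.29. Adra1a (ENSMUSG00000045875, chromosome 14, 66635251 to 66771168, plus strand) was the lowest-expressed of the 9 genes, with a control value of 4.71 FPKM, between bounds of 3.15 and 6.26, and an Rbfox2 OE value of 1.61 FPKM, between 0.997 and 2.23, which do not overlap. Its plain ratio was 2.92, yet its log2 ratio of -1.13 was less negative than that of Adra1b, since the pseudocount weighs more on low values. With a pseudocount of 5 FPKM the 2-fold difference was lost for Adra1a (-0.55) and for Adrb1 (-0.77), while their bounds remained apart. The make-up of the alpha1 family moved little: Adra1b took 80.2% of its FPKM in the control and 81.0% in Rbfox2 OE, and Adra1a 14.7% and 13.2%. The third gene, Adra1d, had 1.62 and 0.696 FPKM with overlapping bounds.

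Gnas, which encodes the stimulatory G protein alpha subunit and is imprinted in some tissues, was the most abundant of the 9 genes per length. It (ENSMUSG00000027523, chromosome 2, 174284320 to 174346744, plus strand) had a control value of 545 FPKM, between bounds of 393 and 696, and an Rbfox2 OE value of 290.0 FPKM, between 208 and 372. The value was 1.88-fold lower, a log2 ratio of -0.91, and the bounds were separate by a small margin, with a log2 ratio of -0.08 at the nearest pair. They overlapped after rescaling without mitochondrial and top genes. The locus has 24 annotated transcripts from several starts, which the gene-level value does not tell apart, and overlaps the antisense genes Nespas, listed at 0 in both groups, and Gm20721, at 2.24 and 1.20 FPKM.

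The genes Gnai1 to Gnai3 for inhibitory alpha subunits, which oppose Gnas at adenylyl cyclase, had higher values in Rbfox2 OE, with bounds that overlapped, and Gnai1 was low in both groups. Gnao1, of the same family, had a lower value, 10.5 against 13.5 FPKM, also with overlapping bounds, and Gnaz was under 1 FPKM in both. Gnai2 had a control value of 135 FPKM, between bounds of 95.9 and 174, and an Rbfox2 OE value of 163 FPKM, between 115 and 211. Gnai3 stood at 5.61 and 8.73 FPKM. The ratio of Gnas to the sum of Gnai1, Gnai2 and Gnai3 was therefore 3.85 in the control (2.15 to 6.96 from the bounds) and 1.67 in Rbfox2 OE (0.925 to 3.05), and these ranges overlapped; this ratio was chosen after the values were seen. Of the other G protein subunit genes, 17 of 25 reached a mean of 1 FPKM. Gnb3, a beta subunit gene, was lower at 3.38 against 10.6 FPKM (log2 ratio -1.40). Gnb5 had bounds apart at a log2 ratio of -0.99, and of these 17 none was higher with separate bounds, although 2 were at least 2-fold higher in value.

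The 2 cyclases that dominate in the cardiomyocyte, Adcy5 and Adcy6, both had separate bounds but differed in size. Adcy6 (ENSMUSG00000022994, chromosome 15, 98589973 to 98610076, minus strand) had a control value of 40.7 FPKM, between bounds of 29.1 and 52.4, and an Rbfox2 OE value of 9.30 FPKM, between 6.48 and 12.1. It was 4.38-fold lower, with a log2 ratio of -2.02 (-1.20 to -2.84 from the bounds), and 1.24% of the genes compared had a lower log2 ratio. Adcy5 (ENSMUSG00000022840, chromosome 16, 35154877 to 35305738, plus strand) had a control value of 17.8 FPKM, between bounds of 12.6 and 23.0, and an Rbfox2 OE value of 9.16 FPKM, between 6.39 and 11.9, 1.94-fold lower with a log2 ratio of -0.89. Like Gnas, Adcy5 lost its separate bounds on rescaling without mitochondrial and top genes.

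The value of Adcy6 was above that of Adcy5 in the control and close to it in Rbfox2 OE. The ratio of their FPKM was 2.29 in the control (1.27 to 4.15 from the bounds) and 1.02 in Rbfox2 OE (0.543 to 1.90), with ranges that overlapped. Of the FPKM of all 9 membrane cyclases, which summed to 71.4 in the control and 31.4 in Rbfox2 OE, Adcy6 took 57.0% and 29.6% and Adcy5 24.9% and 29.2%. Adcy4 took 6.52% in the control (3.50% to 11.6% from the bounds) and 24.8% in Rbfox2 OE (14.5% to 39.5%), so the ranges of its share did not meet. Adcy4 itself stood at 4.66 and 7.80 FPKM with overlapping bounds. Adcy9, which encodes another cyclase, was lower at 2.47 against 6.76 FPKM (log2 ratio -1.16, separate bounds). Adcy7 was at 0.734 and 1.32 FPKM, and Adcy1, Adcy2, Adcy3 and Adcy8 were under 1 FPKM in both groups.

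**Figure D3:**
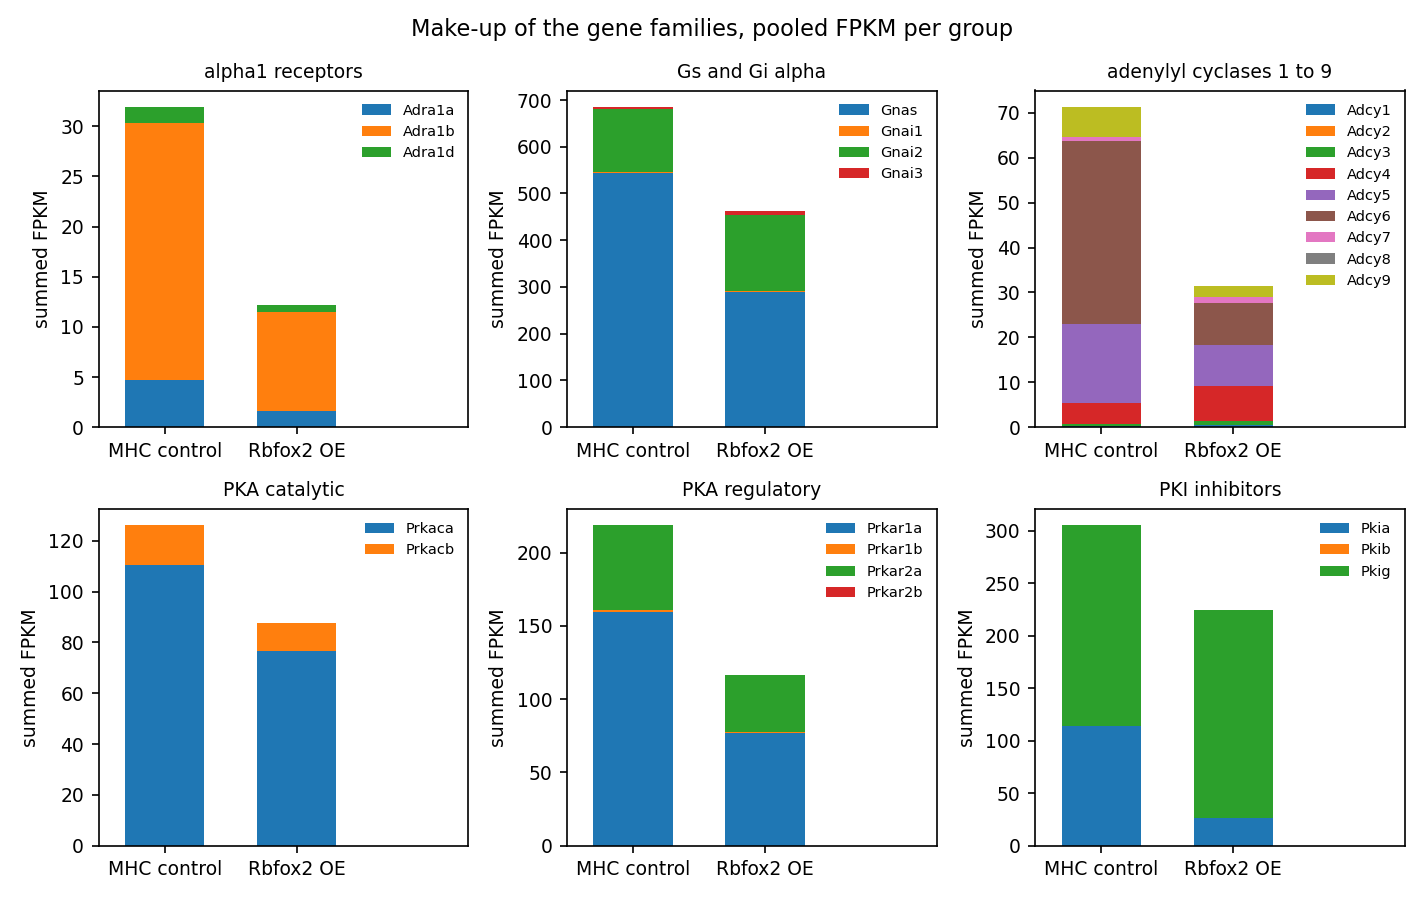
Summed FPKM of 6 gene families in MHC control and Rbfox2 OE, 1 stacked bar per group with 1 colour per gene; no error is drawn. The Adcy6 segment shrinks from 40.7 to 9.30 FPKM and the Pkia segment from 114 to 26.0 FPKM.

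Of the PKA subunits, Prkar1a alone had separate bounds. Prkaca, the main catalytic subunit gene, (ENSMUSG00000005469, chromosome 8, 83972993 to 83996443, plus strand) had a control value of 111 FPKM, between bounds of 79.0 and 142, and an Rbfox2 OE value of 76.7 FPKM, between 54.3 and 99.1, a log2 ratio of -0.52 with overlapping bounds. Of the genes compared, 25.1% had a lower log2 ratio. The second catalytic gene, Prkacb, showed a similar value, -0.46, at 15.6 and 11.1 FPKM with overlapping bounds. Prkaca accordingly held a similar share of catalytic FPKM in both groups, 87.6% and 87.4%.

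Prkar1a, the type I regulatory subunit gene, (ENSMUSG00000020612, chromosome 11, 109649405 to 109669656, plus strand) had a control value of 159.7 FPKM, between bounds of 113 and 206, and an Rbfox2 OE value of 76.6 FPKM, between 53.5 and 99.7. It was 2.09-fold lower and its bounds were separate, with a log2 ratio of -1.05, which came to -0.99 on centring the values on the median gene and so missed 2-fold there, where 9.11% of all genes compared were at least 2-fold lower. Prkar2a, the type II subunit gene through which much PKA is tethered to anchoring proteins, (ENSMUSG00000032601, chromosome 9, 108689314 to 108750436, plus strand) had a control value of 58.0 FPKM, between bounds of 24.8 and 91.3, and an Rbfox2 OE value of 38.6 FPKM, between 17.6 and 59.6. Its log2 ratio of -0.58 is poorly fixed, from 1.23 at the nearest to -2.31 at the farthest bounds: its upper bound lay 57.3% above its control value, against 27.9% to 33.1% for the other 8 genes. Prkar1a made up 73.0% and 65.7% of the regulatory FPKM, and the ratio of regulatory to catalytic FPKM was 1.73 (0.850 to 3.34) against 1.33 (0.627 to 2.62), with overlapping ranges.

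The inhibitor genes of PKA differed from one another. Pkia, whose small protein binds and blocks free catalytic subunits, had a control value of 114 FPKM, between bounds of 62.6 and 165, and an Rbfox2 OE value of 26.0 FPKM, between 13.5 and 38.5, a log2 ratio of -2.09. Pkig, which encodes another inhibitor of this family, had similar values of 191 and 198 FPKM with overlapping bounds. Pkib stayed under 1 FPKM.

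The other genes of the pathway had a median log2 ratio near 0, with called genes in both directions. Of 170 listed genes, 124 reached a mean of 1 FPKM with an estimate in both groups. Separate bounds were found for 24 of these in the lower direction (19.4%, against 9.33% of all genes) and for 6 in the higher (4.84%, against 6.67%), and the median log2 ratio was -0.01. On centring on the cardiomyocyte markers these counts became 10 lower and 29 higher, where 2.54% of all genes compared were lower and 21.5% higher. Of the 19 pathway genes that are named as lower by both rules 9 remained so: Chrm2, Adora1, Pln, Ryr2, Cacna1c, Kcnq1, Pde4a, Pde1c and Pde7b. For the counts by both rules in the lists below, the shares over all genes compared were 7.42% lower and 5.27% higher, as deposited. Among 11 A-kinase anchoring protein genes, whose products hold PKA at its targets, 2 were at least 2-fold lower with separate bounds. These were Akap6, which anchors PKA at the nuclear envelope, at 10.7 against 28.9 FPKM (log2 ratio -1.35), and Akap1, which anchors it at mitochondria, at 32.6 against 69.95 FPKM (-1.08). Akap12 was higher with separate bounds, at 24.1 against 12.1 FPKM, a log2 ratio of 0.94. Akap7 (-1.58) was at least 2-fold lower and Akap2 (1.09) at least 2-fold higher, both with overlapping bounds.

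Of 16 genes for receptor kinases, arrestins and RGS proteins, which switch the receptor and G protein signal off, 1 was lower and 1 higher by both rules, and neither was 2-fold apart with a pseudocount of 5 FPKM. Rgs6, which speeds the turning off of inhibitory G proteins, stood at 4.41 FPKM against 11.1 FPKM in the control (log2 ratio -1.16), and Arrb2, a beta-arrestin, at 10.9 against 4.12 FPKM (1.22). The bounds of Arrb2 were separate by a small margin, with a log2 ratio of 0.03 at the nearest pair. The receptor kinase genes Grk2, listed under its older symbol Adrbk1, and Grk5 had overlapping bounds, at 19.4 and 18.5 FPKM for the first and 11.1 and 20.1 FPKM for the second. Among 12 other receptors and partners that signal through cyclic AMP, 3 were lower by both rules. Chrm2, the muscarinic receptor through which the vagus slows the heart, stood at 5.14 against 25.8 FPKM (-2.13), the adenosine receptor gene Adora1 at 1.52 against 7.46 FPKM (-1.75) and the receptor partner Ramp1 at 0.631 against 2.87 FPKM (-1.25). Apln, the gene of the ligand apelin, S1pr1 and Adora2b had separate bounds but fell short of 2-fold once the pseudocount of 1 FPKM was added. Apln was lower at 1.47 against 3.94 FPKM (-0.998), and S1pr1 and Adora2b were higher at log2 ratios of 0.99 and 0.85. With a pseudocount of 0.1 FPKM the log2 ratios of Apln, S1pr1 and Adora2b were -1.36, 1.01 and 1.62, each past 2-fold.

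Downstream of PKA, 5 of 11 substrate genes were at least 2-fold lower with separate bounds, against 7.42% of all genes compared. None was 2-fold higher, where 6.97% of all genes were. Of the 5, Pln, Ryr2 and Tnni3 are also among the cardiomyocyte markers. Pln, the brake on the calcium pump that PKA releases, stood at 488 against 2613 FPKM (log2 ratio -2.42), Ryr2 at 22.4 against 122 FPKM (-2.39), Cacna1c at 10.5 against 51.6 FPKM (-2.19), Kcnq1 at 3.71 against 28.1 FPKM (-2.63) and Tnni3 at 3866 against 7811 FPKM (-1.01). Tnni3 was not 2-fold lower on centring on the median gene, on rescaling or on centring on the cardiomyocyte markers (-0.31). Rrad, through which PKA releases the L-type calcium channel from inhibition, had similar values of 137 and 141 FPKM. Of 11 genes for other cyclic AMP effectors and CREB family members, Rapgef4, a guanine nucleotide exchange factor opened by cyclic AMP, was lower by both rules, at 2.63 against 8.45 FPKM (-1.38), and Creb1 had 6.32 and 6.08 FPKM with overlapping bounds. Of 11 genes for cyclic AMP phosphodiesterases, 9 had a lower value, where 53.8% of all genes compared did. The median log2 ratio of these 11 genes was -0.73. Pde4a (-2.33), Pde1c (-2.30) and Pde7b (-1.56) were lower by both rules. Pde7a (-1.69) and Pde3a (-1.31) were at least 2-fold lower with overlapping bounds. Pde1a was higher by both rules (1.52), as was Pde4b by just over 2-fold, its control value being 12.0 FPKM.

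**Figure D4:**
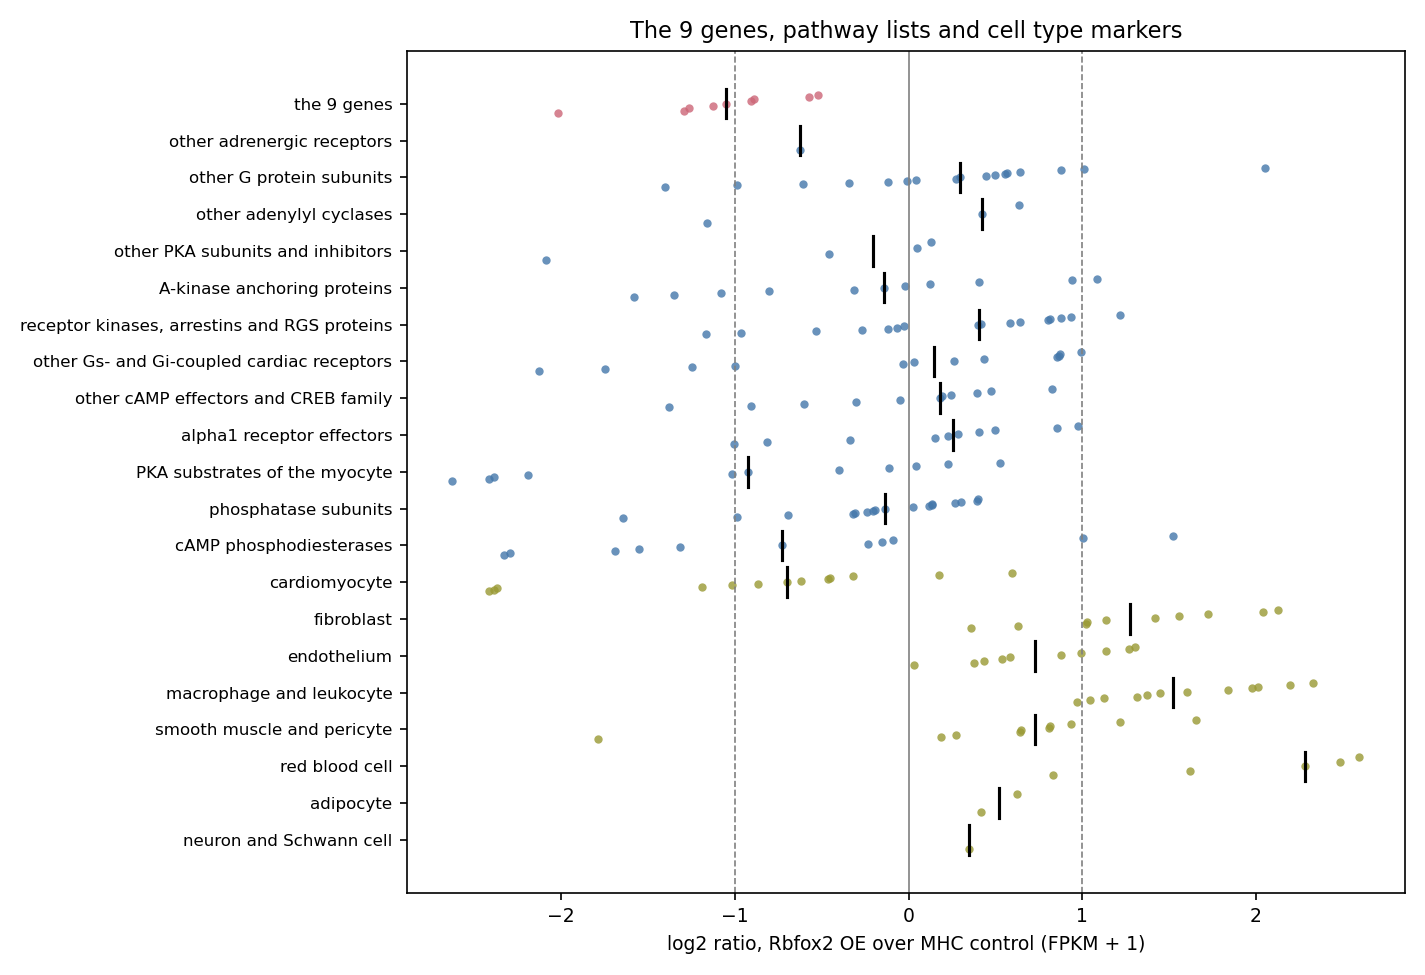
Log2 ratio (FPKM plus 1) of Rbfox2 OE to MHC control for each gene with a mean of at least 1 FPKM and an estimate in both groups: the 9 genes (red), the pathway lists (blue) and cell type markers (olive), with the median of each list as a black bar and dashed lines at 2-fold. The median of the 9 genes, -1.05, lies below that of the cardiomyocyte markers, -0.70, while the medians of the fibroblast, endothelial, macrophage, smooth muscle and red blood cell markers lie between 0.73 and 2.28.

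Across the table, genes with long loci leaned lower in Rbfox2 OE. Of the genes compared, 11679 had an annotated span and were cut into 10 bins of it. At least 2-fold lower were 5.99% of genes in the bin of shortest spans and 22.3% in the bin of longest (above 115 kb), where the median log2 ratio was -0.40. Adra1a, Adra1b and Adcy5, with spans of 136, 127 and 151 kb, fall in that longest bin. Adcy6, with 20.1 kb, and Prkar1a, with 20.3 kb, fall in a bin where 8.30% of genes were at least 2-fold lower, and Adrb1, with 10.9 kb, in one where 7.19% were. Span is a property of the gene and not of the groups, and its part in the differences was not tested.

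**Figure D5:**
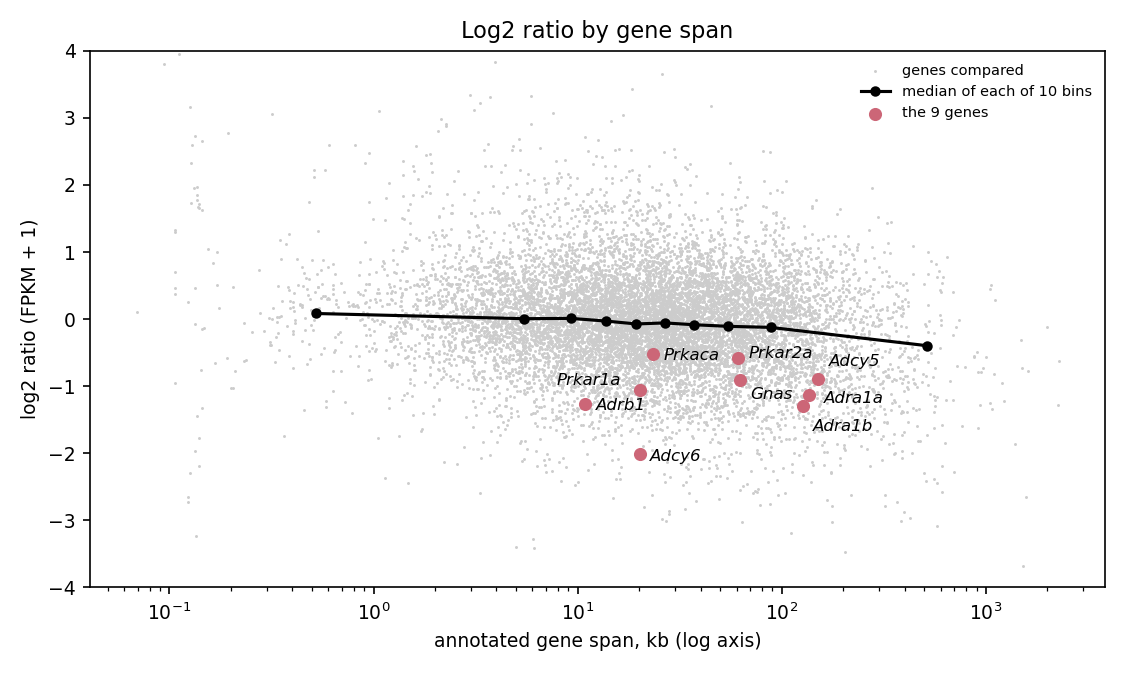
Log2 ratio (FPKM plus 1) of Rbfox2 OE to MHC control against annotated gene span in kb (log axis) for the genes compared (grey), the median of each of 10 equal bins (black) and the 9 genes (red); 30 genes beyond a log2 ratio of 4 in size are not shown. All 9 genes lie below the median of their bin.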

How the data were processed

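Libraries were made with a TruSeq stranded mRNA kit and sequenced on an Illumina HiSeq4000, per the labels' protocols. The submitters' processing notes name STAR 2.4.2a, HTSeq, DESeq2 and Cuffdiff 2.2.1, and the builds GRCm38 and mm10, without roles. The values used are FPKM and their bounds as deposited by the authors, per the file headers those of Cuffdiff, 1 value per group and no value per library. What confidence the bounds stand for, which annotation was counted and whether strand was used are not given in the sources used here, and the depth is unknown. The labels do not say that libraries came from separate mice. No per-sample column was left unused.

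Rows that share a gene name were summed, and genes averaging 1 FPKM or more were expressed as the log2 ratio after adding a pseudocount of 1 FPKM, on which scale the change of low genes is understated. The rules were counted separately: a ratio of at least 2-fold and bounds that do not overlap. Coordinates, spans and overlaps come from GENCODE M21 on GRCm38, where all 9 identifiers matched (without their version), and promoter windows from RefSeq on GRCm38.p6. Gene lists held 170 pathway genes in 12 lists, all found in the table, and 8 lists of cell markers. From each pathway list up to 5 genes that passed both rules are named, in order of size, and others are named as family members of the 9 or after their values were seen. No genes are named for a pattern like that of the 9, since 1 value in each of 2 groups gives none to compare. The 9 genes and the lists were chosen with earlier results of these data known. The calculations were tested on simulated data, with python 3.11.15, pandas 2.3.3 and numpy 2.4.6.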

Additional observations from a re-analysis of the deposited data

How the results depend on the processing

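No paired analysis was possible because both libraries of a group are merged into 1 value, and for that reason the replicate block and leaving out single libraries were not run. Of the 9 genes, 5 were at least 2-fold lower; the count was 3 with a pseudocount of 5 FPKM (Adra1b, Adcy6 and Prkar1a), 1 at a 4-fold threshold (Adcy6) and 1 on centring on the cardiomyocyte markers, which also took the genes with separate bounds from 7 to 1. It was between 4 and 7 under the other alternatives. A minimum mean of 5 FPKM dropped Adra1a. The median of the 9 lay between -1.07 and -0.77 under the other settings and at -0.36 on centring on the cardiomyocyte markers, and the count of higher genes was 0 throughout. Over all genes, 1172 were at least 2-fold lower and 815 higher, against 559 and 304 with a pseudocount of 5 FPKM, 2582 and 1938 at 1.5-fold, 154 and 136 at 4-fold, and 492 higher with a minimum mean of 5 FPKM. In the longest of 5 bins of span, 17.2% were at least 2-fold lower. Log2 ratios of 57 named genes (the 9, 22 named by rule and others) were recomputed: another sign was found for 0 with either pseudocount, 1 on centring on the median gene (Creb1), 3 on rescaling (Gna11, Adrbk1 and Creb1) and 8 on centring on the cardiomyocyte markers, Prkaca and Prkar2a among them. The 22 named by rule met both rules in 11 cases with a pseudocount of 5 FPKM and, for the lower ones, in 9 of 19 on that centring. Among the 124 pathway genes, 23 were at least 2-fold lower and 6 higher, against 29 and 12 with a pseudocount of 0.1 FPKM, 14 and 2 with 5 FPKM, 21 and 8 on centring on the median gene, 20 and 13 on rescaling and 11 and 36 on centring on the cardiomyocyte markers. Of 83 recomputed list medians, 5 changed sign, at values between -0.07 and 0.04. For the moved values the cause was not tested. Unknown depth limits the genes near 0 most.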

Other observations

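Genes of the phosphatases that reverse PKA phosphorylation were set against both rules, 2-fold and separate bounds. All 17 listed genes for catalytic and regulatory subunits were compared, with a median log2 ratio of -0.14, and 15 met neither rule. The share of all genes compared that met neither rule was not computed. Over all genes, 10% were at least 2-fold lower and 6.97% higher, and 9.33% were lower and 6.67% higher with separate bounds. Ppp2r3a, a regulatory subunit of protein phosphatase 2A, was lower by both rules, at 28.2 FPKM in Rbfox2 OE (bounds 19.7 to 36.8) against 90.3 FPKM in the control (bounds 64.7 to 116), a log2 ratio of -1.64, which was -0.96 on centring on the cardiomyocyte markers. Ppp2r5b had separate bounds and a log2 ratio of -0.99. The catalytic subunit genes Ppp1ca, Ppp1cb, Ppp2ca and Ppp2cb had log2 ratios between -0.24 and 0.14 with overlapping bounds.

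Genes that act after the alpha1 receptors were set against the same rules. Of 10 genes for alpha1 effectors (phospholipase C beta, protein kinase C and inositol trisphosphate receptors among them), 0 had separate bounds in either direction. Over all genes compared, 9.33% were lower and 6.67% higher with separate bounds. Prkca was 2-fold lower (log2 ratio -1.01) with overlapping bounds, and not 2-fold lower on centring on the median gene, and the median of the list was 0.25. Gnaq and Gna11, which couple alpha1 receptors to phospholipase C, had log2 ratios of 0.88 and -0.12 with overlapping bounds.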
